A study of Mus musculus with 9 samples.

Results

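The nuclear-encoded genes of the mitochondrial respiratory chain were followed in mouse embryonic fibroblasts that overexpressed the cyclin-dependent kinase inhibitor p21 or p16. They were picked from the count table by symbol, as rows that start with Nduf, Sdha to Sdhd, Uqcr, Cox4 to Cox8 or Atp5, without Ndufa4l2 and without symbols that mark a pseudogene. This gave 93 of the 24062 rows. They comprised 37 complex I subunits, 4 complex II subunits, 8 complex III subunits, 18 complex IV subunits and 15 complex V subunits, 7 complex I assembly factors (Ndufaf) and 2 complex II assembly factors (Sdhaf). Atp5s and Atp5sl, which share the Atp5 stem but encode no subunit of complex V proper, were kept apart as 2 other genes. Ndufa4, first assigned to complex I and later to complex IV, was kept in complex I by its symbol.

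The fibroblasts (MEFs, connective tissue cells grown from mouse embryos) were of the C57BL/6 strain and carried 1 of 3 lentiviruses. Titles of the p21 and p16 samples call them non-senescent, and titles of the control samples call them control. The p21 group overexpressed p21, the p16 group overexpressed p16, and the control group carried a control lentivirus; RNA was taken on day 4 from 3 libraries in each group. The age of the embryos and the promoter that drives each lentiviral gene are not given in the labels. Whether replicates are separate cultures or embryos is not said in the labels. The p-values therefore cover only the spread between these libraries, and how much of it is technical was not tested.

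The respiratory chain passes electrons from NADH through complex I, and from succinate through complex II, to coenzyme Q, then through complex III and cytochrome c to complex IV, which reduces oxygen. Complexes I, III and IV pump protons across the inner mitochondrial membrane, and complex V, the ATP synthase, uses that gradient to make ATP. All complexes but complex II also hold subunits encoded in mitochondrial DNA, which were not analysed here. Fibroblasts use the chain for ATP and to reoxidise NADH, and some of its subunits exist as isoforms that muscle or testis use.

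Library totals ran from 44455730 to 63152239 counts. Cdkn1a, which encodes p21, had 1773, 1429 and 1612 CPM (counts normalised to the scaled library total) in the p21 libraries, against 349.8, 374.5 and 356 CPM in the control libraries. Cdkn2a, the locus of p16, had 1927, 1576 and 1691 CPM in the p16 libraries, against 36.9, 42.2 and 34.7 CPM in the control libraries. The replicate 3 libraries stood apart, with 181 to 251 CPM of Xist, against at most 6.96 CPM in any library of replicates 1 and 2. The summed level of 11 fibroblast markers was 45874 to 47404 CPM with p21, 44197 to 47435 CPM with p16 and 38543 to 43461 CPM in control cells. Of the 11, 5 were higher and 2 lower with p21, and 1 was higher with p16. Over all genes tested these shares were 19.8%, 20.1% and 5.8%. Fn1 had a mean of 15406 CPM with p21 against 10333 CPM in control cells, and Pdgfra 16.8 against 33.5 CPM. The sum of 11 skeletal and cardiac muscle markers was 585 to 667 CPM with p21, 333 to 351 CPM with p16 and 228 to 236 CPM in control cells, and 6 of them passed the filter, of which 3 were higher with p21 and 3 with p16. Of 15 leukocyte markers, summing to 44.2 to 59.8, 34.4 to 61.1 and 27.3 to 42.7 CPM with p21, with p16 and in control cells, 6 of 13 tested were higher with p21, and 2 were at 0. The part of these markers in the results below was not tested. Markers of endothelium summed to at most 3.45 CPM, of epithelium to at most 16.1 CPM, of adipocytes to at most 14.1 CPM and of red cells to at most 0.415 CPM in any library.

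Together the members made up 0.754% to 0.790% of all counts in a library, and this share overlapped between the 3 groups. Of the 93, 89 passed the filter on low counts and were among the 14223 genes tested. Not tested were Cox7b2, Cox8b and Cox8c, isoforms of testis or muscle with 0 to 2 counts in a library, and Ndufs5, a small accessory subunit of complex I. Ndufs5 had 0 counts in all 9 libraries, which allows at most 0.0477 to 0.0681 CPM in a library at 3 counts; these limits cover counting error only. A processed pseudogene, BC002163, is 99.4% identical to the Ndufs5 transcript over 319 bases and had 0 to 18 counts; how the counting treated reads that match more than 1 gene is not given in the sources used here. On a scale of CPM per kilobase of exon, averaged over all libraries, the catalytic ATP synthase subunit gene Atp5b was at 316, followed by the complex IV genes Cox6a1 at 247 and Cox8a at 231. The length is that of all annotated exons of a gene joined. It can exceed the length of the transcripts, so ranks on this scale depend on the annotation. The median on this scale was 66.7 for complex V, 54.9 for complex IV, 55.4 for complex III, 44.5 for complex II and 26.6 for complex I, against 4.58 for the complex I assembly factors.

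With p21, 4 of 8 complex III and 8 of 15 tested complex IV subunit genes rose, beside 8 of 36 of complex I. The share over all genes tested was 19.8%. Of 7 complex I assembly factors, 2 fell (Ndufaf3 and Ndufaf4), beside 20.1% of all genes tested. By edgeR's quasi-likelihood test, with p-values adjusted over all 14223 genes (Benjamini-Hochberg, threshold 0.05), 25 of 89 members were higher with p21 than in control cells and 7 were lower. That is 28.1% higher and 7.87% lower, against 19.8% and 20.1% of all genes tested. The changes were small: called members ran from a log2 fold change of -0.65 to 0.37, and the median over the 89 was 0.029, against 0.001 over all genes. All 3 p21 libraries lay above all 3 control libraries for 32 members and below them for 10, against 24.2% and 25% of all genes tested. In bulk RNA a change in the mix of cells cannot be told apart from a change of RNA per cell. With the replicate number as a block, 28 members were higher and 8 lower, where 24% and 24.2% of all genes passed. Without p21 replicate 1 the count of higher members was 15, and without control replicate 1 it was 16; the count of lower members was 4 without control replicate 1 or control replicate 2. In replicates 1 and 2 alone 21 were higher and 6 lower, and the median was 0.099 for complex IV and 0.076 for complex III. When only members with no transcript of another gene at 95% identity over 100 bases were counted, 14 of 62 were higher and 5 lower. Of the 26 tested members with such a copy, 11 were higher and 2 lower, and reads could be split between gene and copy. Beside both stand the 19.8% and 20.1% of all genes tested.

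**Figure D1:**
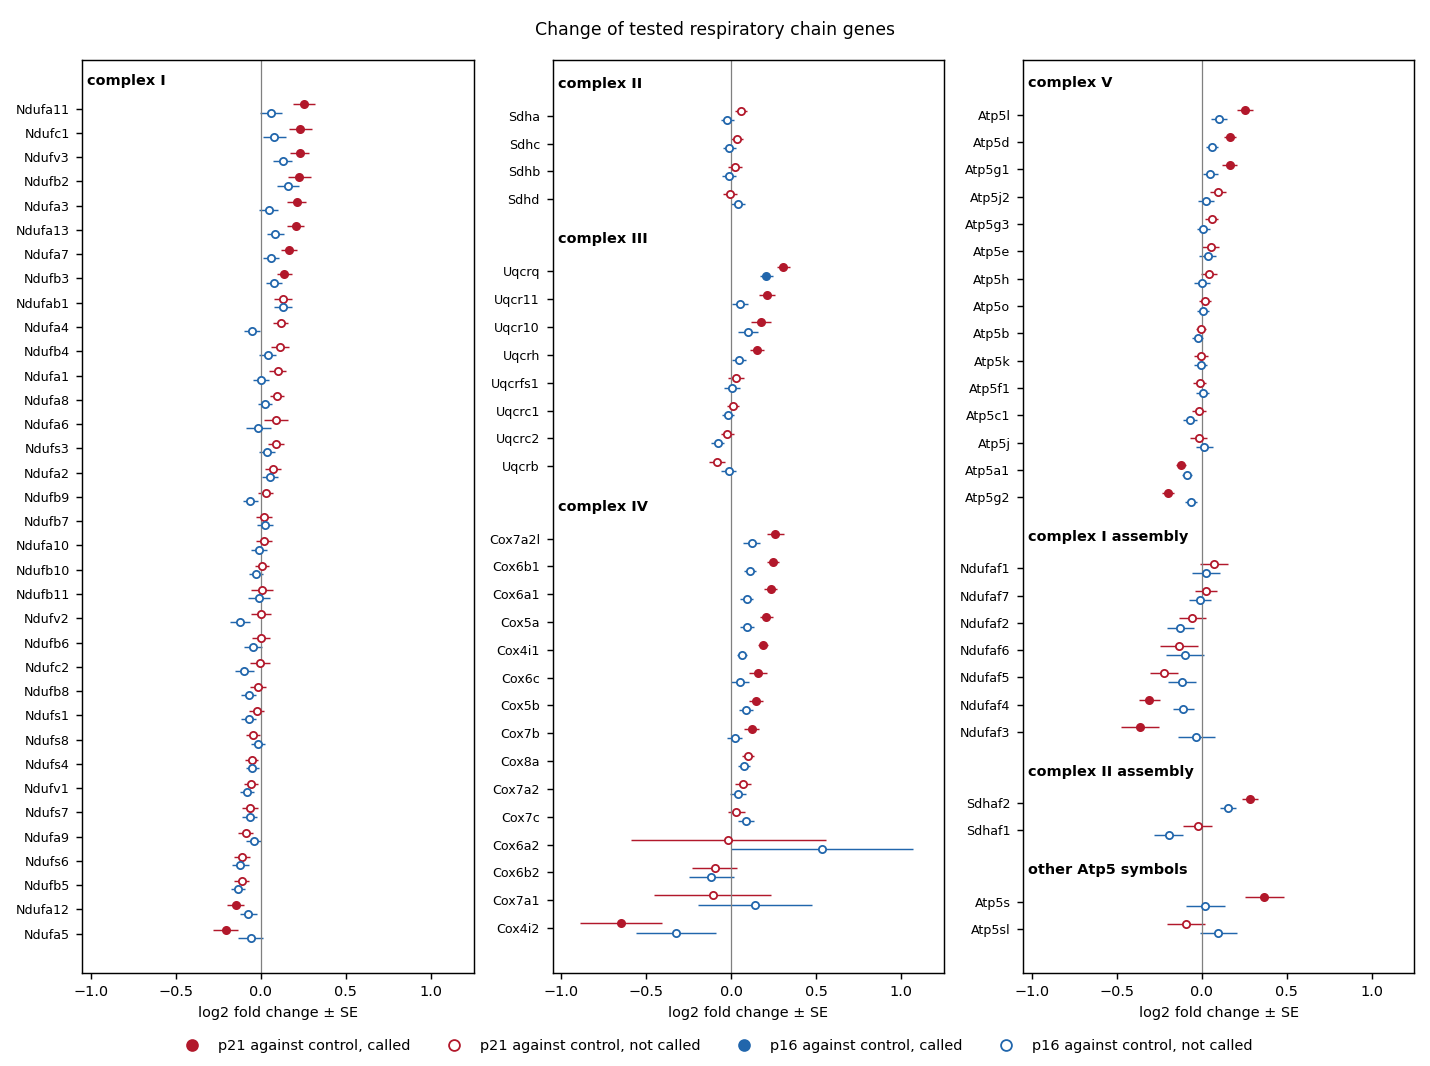
Log2 fold change (horizontal axis, with its standard error as a line) of 88 of the 89 tested members, grouped by complex, for p21 against control (red) and p16 against control (blue). Filled points passed edgeR's quasi-likelihood test at an adjusted p of 0.05: 32 members with p21 and 1, Uqcrq, with p16.

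Summed over the subunits of a complex, complex IV was the only 1 of the 5 complexes whose libraries separated all 3 groups. Its 18 genes summed to 1365, 1299 and 1362 CPM with p21, to 1240.3, 1279 and 1251 CPM with p16, and to 1185, 1205 and 1181 CPM in control cells. The mean was 1.13 times the control mean with p21 and 1.06 times with p16. Complex III summed to 727, 692 and 707 CPM with p21 and to 668, 682 and 676 CPM in control cells, without overlap on this scale. The p16 libraries at 677, 692 and 679 CPM overlapped with the control libraries. As a percent of all counts, complex III held 0.0712, 0.0686 and 0.0695 with p21 and 0.0680, 0.0696 and 0.0688 in control libraries, which overlap. Complex I gave 1733, 1677 and 1777 CPM with p21, against 1653, 1703 and 1671 CPM in control cells, and p21 replicate 2 lay inside the control range. Complex II gave 488, 469.9 and 498 CPM with p21 and 478, 477 and 467 CPM in control cells, which overlap. Complex V, the most abundant, gave 3513, 3400 and 3524 CPM with p21 and 3521, 3541 and 3422 CPM in control cells, a ratio of 0.996. As a percent of all counts, complex V held 0.344, 0.337 and 0.346 with p21 and 0.358, 0.361 and 0.348 in control libraries. On that measure every p21 library lay below every control library. The p21 replicate 2 library had the lowest p21 sum in all 5 complexes, and it was the lowest p21 library for 61 of the 89 members.

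**Figure D2:**
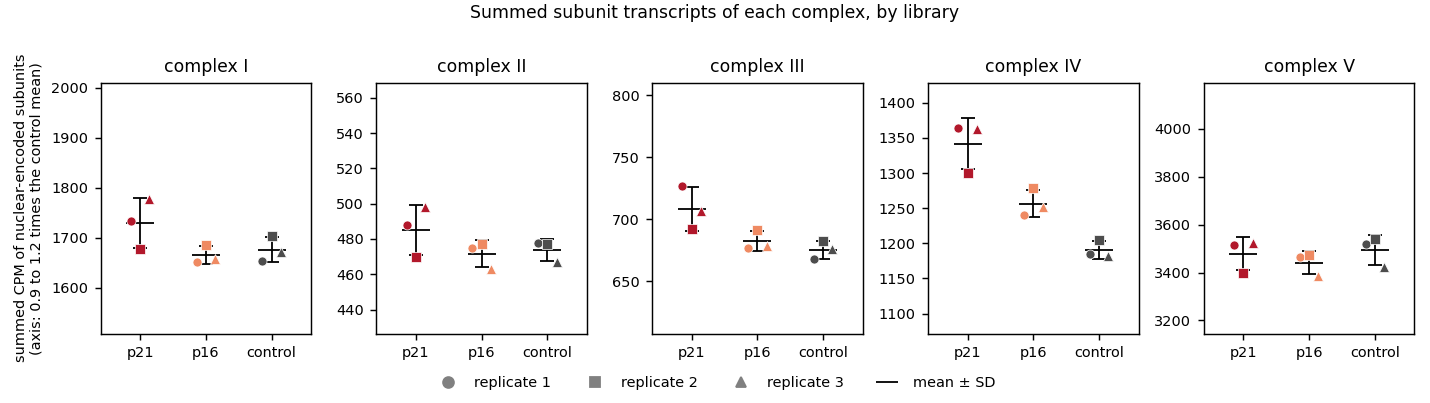
Summed CPM (vertical axes, drawn from 0.9 to 1.2 times the control mean and not from 0) of the subunit genes of each complex in every library, with the mean and SD of 3 libraries per group. The complex IV panel shows p21 at 1299 to 1365, p16 at 1240.3 to 1279 and control at 1181 to 1205 CPM with no overlap. On this scale of TMM-scaled totals the complex V groups overlap.

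In complex IV, the cytochrome c oxidase, 8 of 15 tested subunit genes rose with p21 and 1 fell. Of all genes tested, 19.8% rose and 20.1% fell. The median log2 fold change of the 15 was 0.12. The p21 libraries lay wholly above the control libraries for 10 of the 15, against 24.2% of all genes tested. Cox6b1, whose product faces the intermembrane space and joins the dimer, had 138, 136 and 143 CPM with p21, 125, 129 and 126 CPM with p16, and 116, 122 and 114 CPM in control cells. Every p21 library lay above every p16 library, and these above every control library. Its log2 fold change with p21 was 0.25 ± 0.037 (SE; edgeR adjusted p = 2.44e-04). Cox6a1, the non-muscle form of a regulatory subunit, had 196, 183 and 186 CPM with p21, 174, 172 and 168 CPM with p16, and 155, 166 and 160.5 CPM in control cells. It showed the same order without overlap, at 0.23 ± 0.037 with p21 (edgeR adjusted p = 3.42e-04). Cox4i1, the common form of the subunit through which ATP inhibits the enzyme, had 227, 218 and 229.5 CPM with p21, 206, 210.2 and 202 CPM with p16, and 196, 195 and 201 CPM in control cells. Its p21 change was 0.19 ± 0.031 (edgeR adjusted p = 5.14e-04), and 9.94% of its exon bases overlap Emc8 on the opposite strand, which the library kit does not separate.

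Cox7a2l encodes SCAF1, a protein described as a link between complex III and complex IV in supercomplexes. Whether SCAF1 does so in the mouse strain used here was not tested, and RNA levels do not show it. Cox7a2l had 135, 127 and 149 CPM with p21, 123, 124 and 126 CPM with p16, and 112, 113 and 118 CPM in control cells. The groups were again without overlap, and the p21 libraries spread more widely than the others. The p21 change was 0.26 ± 0.050 (edgeR adjusted p = 0.00139); a processed pseudogene, Gm6969, is identical to 201 bases of its transcript. Cox5a, a matrix-side subunit, had 104, 98.4 and 105 CPM with p21 and 90.8, 89.5 and 85.6 CPM in control cells, a log2 fold change of 0.21 ± 0.039 (edgeR adjusted p = 0.0012). The other subunit genes that rose were Cox6c (0.16), the zinc-binding Cox5b (0.14) and the X-linked Cox7b (0.12), and all 3 have near-identical pseudogenes or copies. The Cox7b call, at an edgeR adjusted p of 0.0451, was lost on leaving out any of 8 of the 9 libraries. Cox8a missed the threshold at 0.098 ± 0.037 (edgeR adjusted p = 0.0521, and 0.0254 with the replicate block), and Cox7a2 (0.070) and Cox7c (0.029) did not pass.

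Of the summed complex IV difference between p21 and control cells, Cox6a1 held 18.4%, Cox4i1 18.0%, Cox7a2l 14.9% and Cox6b1 14.4%. Isoforms that belong to other tissues stayed low in every group. Cox6a2 and Cox7a1, the heart and skeletal muscle forms of their subunits, had 4 to 17 and 22 to 58 counts in a library, and Cox6b2, the testis form, had 197 to 318 counts; none of the 3 passed edgeR's test in any comparison, with unadjusted p of 0.329 or more. Their levels are given here because markers of muscle differed between the groups. Cox4i2, the isoform induced by low oxygen and abundant in lung, had 1.01, 0.658 and 0.874 CPM with p21, 0.869, 1.02 and 1.32 CPM with p16, and 1.21, 1.54 and 1.26 CPM in control cells. The p21 libraries lay below the control libraries, at a log2 fold change of -0.65 ± 0.24 (edgeR adjusted p = 0.049). This call rested on 29 to 90 counts in a library, and was lost on leaving out any of 7 libraries and under DESeq2, where the adjusted p was 0.0523. Without the members under a mean of 1 CPM, the complex IV median was 0.14 with p21.

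**Figure D3:**
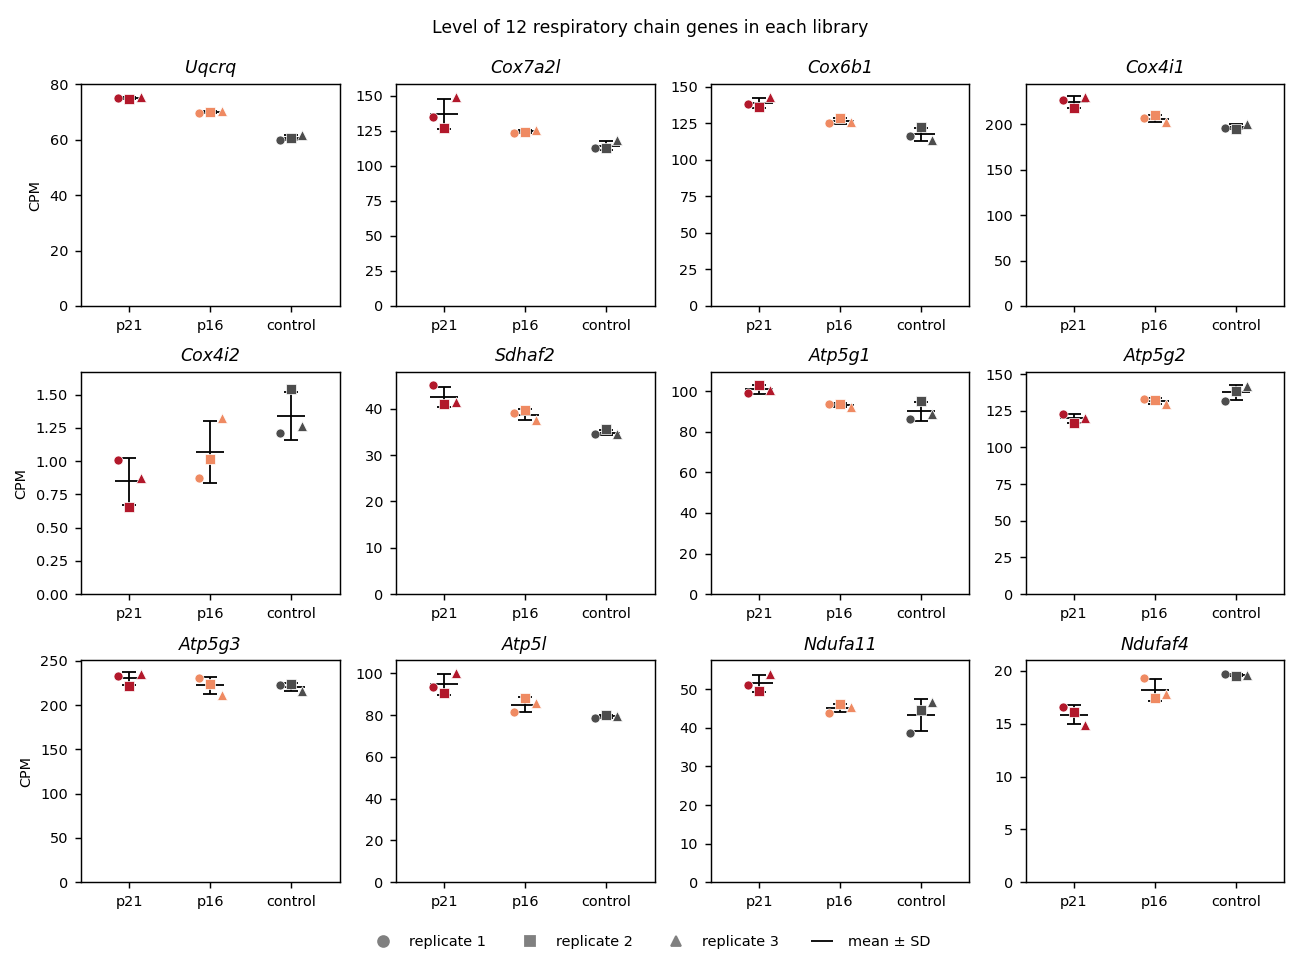
CPM (vertical axes from 0) of 12 members in each of the 9 libraries, with the mean and SD of 3 libraries per group. Uqcrq lies at 74.8 to 75.5 CPM with p21, 69.8 to 70.4 with p16 and 60.0 to 61.6 in control cells; Atp5g1 is higher and Atp5g2 lower with p21, while Atp5g3 overlaps between groups.

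In complex III, the cytochrome bc1 complex, 4 of 8 genes rose with p21, against 19.8% of all genes tested. The median log2 fold change of the 8 was 0.090. None fell by edgeR (0 at an unadjusted p under 0.05, and 0 by DESeq2 or limma-voom). All 4 were among the 5 small accessory subunits. Uqcrq, which encodes the ubiquinone-binding accessory subunit QP-C, had 75.0, 74.8 and 75.5 CPM with p21, 69.8, 70.0 and 70.4 CPM with p16, and 60.0, 60.6 and 61.6 CPM in control cells. The 3 groups were tight and did not overlap. The log2 fold change was 0.31 ± 0.037 with p21 (edgeR adjusted p = 4.17e-05) and 0.21 ± 0.037 with p16 (edgeR adjusted p = 0.00452). Uqcr11 had 55.9, 50.0 and 51.9 CPM with p21 and 45.9, 45.2 and 45.5 CPM in control cells, at 0.21 ± 0.046 (edgeR adjusted p = 0.00296). Uqcr10 (0.17, edgeR adjusted p = 0.0324) and Uqcrh (0.15, edgeR adjusted p = 0.0141), the hinge protein that helps cytochrome c bind, were also called. The Uqcr10 call was lost without any of 5 libraries and the Uqcrh call without p21 replicate 1, and both lost it when libraries were scaled by their totals only. Uqcr10 and Uqcr11 each have near-identical copies of 191 and 171 bases; without genes of this kind the complex III median was 0.028. The fifth accessory gene, Uqcrb, had a log2 fold change of -0.086 ± 0.047, and the core proteins Uqcrc1 and Uqcrc2 and the Rieske iron-sulphur protein Uqcrfs1, which carries electrons, lay between -0.023 and 0.028 and did not pass. For Uqcrb, 62.8% of the transcript has near-identical copies. Cytochrome c1, the haem subunit, lies outside the symbol rule, and its gene Cyc1 fell. It had 99.7, 98.1 and 97.3 CPM with p21, against 104, 106 and 104 CPM in control cells, at -0.089 ± 0.033 (edgeR adjusted p = 0.0497). Cycs, the mobile carrier cytochrome c, was at -0.094 ± 0.055 and did not pass.

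In complex I, the NADH dehydrogenase, 8 of 36 tested genes rose with p21 and 2 fell, where 19.8% and 20.1% of all genes did. Its median log2 fold change was 0.025. The median was 0.016 without control replicate 1, 0.053 without control replicate 2 and 0.062 without p21 replicate 2. All 10 were accessory subunits. Of the core subunits, Ndufv1 and Ndufv2 form the NADH-binding end, where Ndufv1 holds the flavin, and Ndufs1 carries electrons onward through iron-sulphur clusters. With p21 their log2 fold changes were -0.059 ± 0.040, 0.0027 ± 0.059 and -0.025 ± 0.046, and none of the 3 passed edgeR's test in any comparison, with unadjusted p of 0.0513 or more. The median over the 29 tested accessory subunits was 0.073. Ndufa11, a membrane accessory subunit, had 51.2, 49.5 and 54.0 CPM with p21, 43.9, 46.2 and 45.3 CPM with p16, and 38.7, 44.6 and 46.7 CPM in control cells. The p21 libraries lay above the rest, while p16 and control overlapped. Its p21 change was 0.25 ± 0.063 (edgeR adjusted p = 0.00712). Ndufc1, Ndufv3 and Ndufb2 each changed by 0.23, Ndufa3 by 0.21, Ndufa13 (also GRIM-19, a cell death regulator) by 0.20, Ndufa7 by 0.16 and Ndufb3 by 0.14. For Ndufa13, 30.0% of exon bases overlap Tssk6 on the opposite strand. The 2 that fell were Ndufa5, at 20.4, 16.6 and 19.5 CPM with p21 and 22.7, 21.7 and 20.9 CPM in control cells (-0.21 ± 0.075, edgeR adjusted p = 0.0437), and Ndufa12, at 35.2, 32.2 and 35.9 CPM with p21 and 39.7, 36.6 and 38.1 CPM in control cells (-0.15 ± 0.050, edgeR adjusted p = 0.0326). Of these 10 genes, Ndufa12 (36.2% of its transcript), Ndufb3 (37.0%) and Ndufc1 (10.6%) have near-identical sequence in other genes. The Ndufa5 call was lost without any of 5 libraries, among them p21 replicate 2, without which the change was -0.13. The X-linked Ndufa1 (0.099 ± 0.050) and Ndufb11 (0.004 ± 0.065) did not pass.

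Of the 7 complex I assembly factors, which help build the complex and leave it, 2 fell with p21, against 20.1% of all genes tested. Their median was -0.13. None rose by edgeR (0 at an unadjusted p under 0.05, and 0 by DESeq2 or limma-voom). Ndufaf4, which acts early in building the peripheral arm, had 16.6, 16.1 and 14.9 CPM with p21, 19.4, 17.4 and 17.8 CPM with p16, and 19.7, 19.5 and 19.6 CPM in control cells. Each p21 library was below each p16 library, and these below each control library, an order that no other member and 7.71% of all genes tested showed. The log2 fold change was -0.31 ± 0.061 (edgeR adjusted p = 0.00161). Ndufaf3, its partner protein, had 4.38, 3.90 and 3.51 CPM with p21 and 4.78, 5.52 and 4.89 CPM in control cells, at -0.36 ± 0.11 (edgeR adjusted p = 0.0213), a call lost without control replicate 2 or p21 replicate 3. Ndufaf5 was at -0.22 ± 0.084 and passed with the replicate block only (edgeR adjusted p = 0.0206). The 7 factors summed to 74.0, 74.74 and 71.3 CPM with p21, 78.5, 74.86 and 75.1 CPM with p16, and 79.7, 81.5 and 78.8 CPM in control cells. These sums separated the 3 groups as those of complex IV did, in the opposite direction and by a small margin. Of 9 other complex I assembly genes, 2 rose with p21, the membrane-arm factors Tmem70 (0.30, which also serves complex V) and Timmdc1 (0.27), and Ecsit fell (-0.16).

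Complex II, succinate dehydrogenase, which is wholly nuclear-encoded, gave no call in any comparison by edgeR with or without the replicate block, nor by DESeq2 or limma-voom. At an unadjusted p under 0.05, 0 of its 4 genes were called with p21 or p16 against control and 1 was higher in p21 against p16 cells. Sdha, the flavoprotein, had 217, 212 and 229.8 CPM with p21, 209, 211 and 204 CPM with p16, and 217, 210.2 and 206 CPM in control cells. The p21 and the p16 libraries each overlapped with the control libraries, while every p21 library lay above every p16 library. Its log2 fold change with p21 was 0.058 ± 0.036 (edgeR adjusted p = 0.228). The iron-sulphur subunit gene Sdhb was at 0.022 ± 0.042, and the membrane anchors Sdhc and Sdhd were at 0.034 ± 0.037 and -0.0062 ± 0.040. Sdhaf2, which is needed to attach flavin to Sdha, had 45.1, 41.0 and 41.5 CPM with p21, 39.0, 39.8 and 37.5 CPM with p16, and 34.5, 35.6 and 34.5 CPM in control cells. The 3 groups did not overlap, and the p21 change was 0.29 ± 0.047 (edgeR adjusted p = 4.26e-04). Sequence in 7.25% of its transcript also occurs in transcripts of 544 other genes. Sdhaf1, which serves Sdhb, was at -0.025 ± 0.086.

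Complex V, the ATP synthase, had 3 of 15 genes higher with p21 and 2 lower, where 19.8% and 20.1% of all genes were. Its median log2 fold change was 0.018. The median was 0.043 without p21 replicate 2, 0.028 without control replicate 1 and -0.0027 without p21 replicate 3, so its sign depended on 1 library. The c ring, the rotor of the membrane part, is built from 1 mature protein encoded by 3 genes that differ in their import sequences. Of these genes Atp5g1 rose with p21, Atp5g2 fell and Atp5g3 did not pass. Atp5g1 had 98.9, 103 and 101 CPM with p21, 93.8, 93.9 and 92.1 CPM with p16, and 86.2, 95.1 and 88.9 CPM in control cells, higher in every p21 library at 0.16 ± 0.042 (edgeR adjusted p = 0.00813). Atp5g2 had 123, 116 and 120.02 CPM with p21, 133, 132 and 129 CPM with p16, and 132, 139 and 142 CPM in control cells, lower in every p21 library at -0.20 ± 0.038 (edgeR adjusted p = 0.00121). Atp5g3 had 233, 222 and 235 CPM with p21, 231, 224 and 212 CPM with p16, and 223, 224 and 216 CPM in control cells, which overlap (0.059 ± 0.038, edgeR adjusted p = 0.243). Per kilobase, Atp5g3 was at 103 CPM, Atp5g2 at 77.4 and Atp5g1 at 19.3 over all libraries. Not divided by length, their means were 224, 130 and 94.8 CPM, and their joined exons hold 2181, 1675 and 4912 bases. The gaps per kilobase therefore depend on the annotated lengths. For Atp5g1, 18.3% of the transcript matches 19 other genes, mostly pseudogenes, and for Atp5g2, 16.9% matches 1 pseudogene, Gm10175, so the levels of both are uncertain.

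Among the other ATP synthase genes, Atp5l, subunit g of the membrane part that helps dimers form, had 93.3, 90.7 and 100.04 CPM with p21, 81.3, 88.2 and 85.6 CPM with p16, and 78.7, 79.9 and 79.5 CPM in control cells, without overlap. It changed by 0.25 ± 0.046 with p21 (edgeR adjusted p = 8.51e-04), and 72.2% of its transcript has near-identical copies in 10 other genes. Atp5d, the delta subunit of the central stalk, rose (0.17 ± 0.035, edgeR adjusted p = 0.00255). Atp5a1, the alpha subunit of the catalytic head, had 607, 606 and 629 CPM with p21, 634, 627 and 624 CPM with p16, and 677, 678 and 651 CPM in control cells. Both p21 and p16 libraries lay below all control libraries. The p21 change was -0.12 ± 0.030 (edgeR adjusted p = 0.00554), and the p16 change was -0.089 ± 0.030 (edgeR adjusted p = 0.0736, and 0.0312 with the replicate block). Its partner in the head, Atp5b, was at -0.004 ± 0.031 with p21, and none of the 4 peripheral stalk genes (Atp5f1, Atp5h, Atp5j and Atp5o, -0.017 to 0.044) passed edgeR's test (0 at an unadjusted p under 0.05, and 0 by DESeq2 or limma-voom). Near-identical copies cover 52.6% of the Atp5f1 transcript, 71.3% of that of Atp5h and 76.7% of that of Atp5o, so their levels are uncertain too. Atp5s, a factor once described as a coupling factor of the synthase, rose by 0.37 ± 0.11 with p21 at 4.96 to 5.54 CPM, against 3.89 to 4.30 CPM in control cells (edgeR adjusted p = 0.0217), a call lost without control replicate 1, control replicate 3 or p21 replicate 1; Atp5sl did not pass.

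With p16, 1 of 89 members passed edgeR's test against control, Uqcrq, and none was lower, where 5.8% and 5.56% of all genes were higher and lower. With the replicate block 5 were higher (Uqcrq, Cox7a2l, Cox6b1, Sdhaf2 and Ndufv3) and 2 lower (Ndufb5 and Atp5a1), where 11.3% and 10.1% of all genes passed. DESeq2 called 2 higher and 1 lower, against 1032 and 966 of all 14223 genes. The limma-voom counts were 1 and 0, against 827 and 841 of all genes. At an unadjusted p under 0.05 edgeR gave 10 and 4, against 1929 and 1803 of all genes. Without the replicate 3 libraries, 1 was higher and none lower. The p16 libraries lay above all control libraries for 18 members and below for 7, against 16.1% and 16.6% of all genes tested. The median log2 fold change with p16 was 0.087 for complex IV, 0.025 for complex III, -0.013 for complexes I and II and 0.0079 for complex V, beside 0.002 over all genes. Without p16 replicate 2 it was 0.054 for complex IV and -0.0084 for complex V, and without control replicate 3 it was -0.010 for complex V. Without the block none of the complex IV genes passed edgeR's test (4 higher at an unadjusted p under 0.05, and 0 by DESeq2 or limma-voom). Cox6b1 was at 0.11 ± 0.037 with p16 (edgeR adjusted p = 0.079, and 0.0331 with the block), and Cox7a2l at 0.12 ± 0.050 (0.148, and 0.0243 with the block, both edgeR adjusted p). Sdhaf2 was at 0.15 ± 0.047 (edgeR adjusted p = 0.0565, and 0.0231 with the block). Of the complex I genes, Ndufb5 was at -0.13 ± 0.042 (edgeR adjusted p = 0.0613, and 0.0405 with the block).

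Set against each other, p21 and p16 cells differed in 8 members: 6 were higher with p21 and 2 lower, where 6.15% and 6.91% of all genes were. Higher with p21 were Ndufa4 (0.17 ± 0.046), Uqcr11 (0.16), Atp5l (0.15), Cox6a1 (0.14), Cox6b1 (0.14) and Cox4i1 (0.12), with edgeR adjusted p from 0.0231 to 0.0437. Ndufa4, which later work places in complex IV, had 92.2, 92.2 and 100.5 CPM with p21, 83.3, 87.7 and 82.6 CPM with p16, and 85.1, 87.1 and 90.7 CPM in control cells. It was above both other groups in every p21 library, and missed the threshold against control at 0.12 ± 0.046 (edgeR adjusted p = 0.0639, and 0.0197 with the block). Lower with p21 than with p16 were Atp5g2 (-0.14 ± 0.038, edgeR adjusted p = 0.0335) and Ndufaf4 (-0.20 ± 0.061, edgeR adjusted p = 0.0497). With the replicate block 14 were higher and 3 lower, where 11% and 11.6% of all genes passed. The calls changed with single libraries: the higher count ran from 0 to 10 and the lower count from 0 to 1 on leaving out single libraries, and replicates 1 and 2 alone gave 2 and 1. Each of the p21 and p16 comparisons uses the same control libraries. The order p21 above p16 above control, with no overlap of libraries, held for 11 of 89 members (12.4%), against 7.01% of all genes tested: Uqcrq, Uqcr11, Cox4i1, Cox5a, Cox6a1, Cox6b1, Cox7a2l, Atp5d, Atp5l, Ndufb3 and Sdhaf2.

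Genes that serve the chain but lie outside the symbol rule were counted from lists of their own. Beside the counts with p21 that follow, 19.8% of all genes tested rose and 20.1% fell. Of 21 tested complex IV assembly genes, 7 rose with p21 and 1 fell (median 0.087), among them Cox14 (0.32 ± 0.060, edgeR adjusted p = 9.74e-04) and Surf1 (0.33 ± 0.071, edgeR adjusted p = 0.00278), which act early in assembly, while Cox10, which makes haem o, fell (-0.21). Of 5 complex III assembly genes, Ttc19 rose (0.19) and Bcs1l, which inserts the Rieske protein, fell (-0.29). Of 6 complex V assembly and inhibitor genes, Tmem70 and the membrane subunit gene Usmg5 (0.24) rose. Coenzyme Q synthesis had 3 of 13 higher and 3 lower, with Pdss1, which builds the side chain, lower both with p21 (-0.58 ± 0.082, edgeR adjusted p = 1.45e-04) and with p16 (-0.44 ± 0.081, edgeR adjusted p = 0.00545). In the TCA cycle 2 of 18 rose, Mdh2 among them (0.15), and 3 fell; Idh2, the mitochondrial NADP isocitrate dehydrogenase, fell to a mean of 87.4 CPM with p21 (edgeR adjusted p = 7.02e-06) and 108 CPM with p16 (edgeR adjusted p = 0.0098), against 129 CPM in control cells. Of 9 carriers, 5 rose with p21 and 2 fell, with the phosphate carrier Slc25a3 at 0.16 and the pyruvate carrier subunit Mpc2 at 0.30, and Ucp2 rose with both p21 (0.61) and p16 (0.61).

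Mitochondrial ribosomal proteins translate the subunits encoded in mitochondrial DNA, and import brings in the rest. Here too the shares over all genes tested were 20.1% lower and 19.8% higher with p21, and 5.56% lower with p16. Of 77 mitochondrial ribosomal protein genes, 23 fell with p21 and 5 rose (median -0.077), with Mrps5 at -0.31 and Mrpl34 at 0.35, and 3 fell with p16. Of 22 import genes, 7 fell and 2 rose: Timm50, a receptor of the inner membrane translocase, was at -0.31 ± 0.038 with p21 (edgeR adjusted p = 5.21e-05) and Timm8b at 0.37. Among 16 transcriptional regulators, 6 fell with p21 and 2 rose (median -0.12). Gabpb2, a subunit of the factor GABP, was at a mean of 27.7 CPM with p21, 35.8 CPM with p16 and 43.2 CPM in control cells (-0.64 ± 0.054 with p21, edgeR adjusted p = 2.26e-06). Nrf1, which encodes an activator of many respiratory chain genes, was at 25.6 CPM with p21, 29.1 CPM with p16 and 33.2 CPM in control cells (-0.37 ± 0.057 with p21, edgeR adjusted p = 2.36e-04). Of 9 genes that maintain mitochondrial DNA, 3 rose with p21, Rrm2b (0.46) and Dguok (0.40) among them, and 1 fell.

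**Figure D4:**
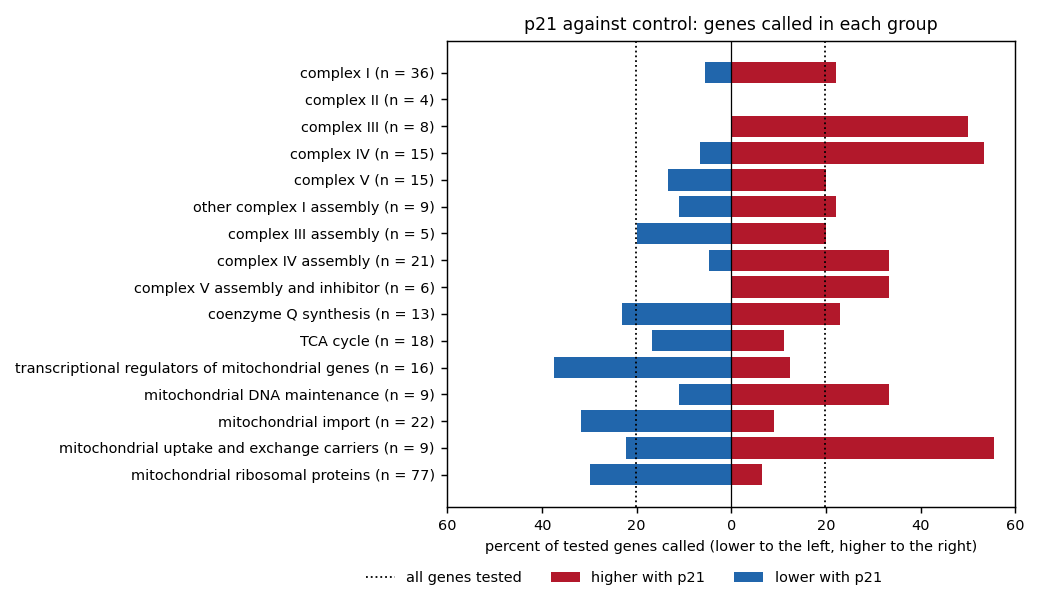
Percent of the tested genes of each complex and each list (rows, with their number) that were called lower (bars to the left) or higher (bars to the right) with p21 against control by edgeR. Dotted lines mark the shares over all genes tested, 20.1% lower and 19.8% higher. The carrier list (5 of 9) and complexes III and IV extend furthest to the right. The complex IV assembly (7 of 21), complex V assembly (2 of 6) and mitochondrial DNA (3 of 9) lists also pass the right line. The ribosomal protein, import and regulator lists extend furthest to the left.

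Promoters of the members were searched for motifs of 3 factors known to act on respiratory chain genes, and both strands were read in RefSeq windows of 300 bases (GRCm38.p6, 250 before and 50 after the start), which matched 75 members. The NRF1 core motif GCGCATGCG stood in 10 of the 75 (13.3%), against 1.95% of the promoters of all genes in the RefSeq table and 3.91% of those of the genes tested. The ETS motif CCGGAAG, which GABP binds, stood in 19 (25.3%), against 9.93% and 18.6%, and the YY1 motif AAGATGGCG in 7 (9.33%), against 1.64% and 3.27%. Among tested members with a window, GCGCATGCG stood in 4 of 21 that were higher with p21, 2 of 5 that were lower and 4 of 46 that were not called. CCGGAAG stood in 6 of 21 higher, 0 of 5 lower and 13 of 46 not called, and AAGATGGCG in 1 of 21, 0 of 5 and 6 of 46. GCGCATGCG and its reverse overlap where both stand. These are matches of letters, described without a test.

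The 250 bases before the start of the 3 c ring genes are shown because they encode 1 mature protein and gave different calls, and those of Cox6b1 and Ndufaf4 because they hold a motif in a gene that rose and one that fell. All run 5′ to 3′ on the strand of the gene, with a motif in capitals. Atp5g2 (chr15:102671048-102671297, minus strand) holds GCGCATGCG and its reverse from position -42 on, and Ndufaf4 (chr4:24897833-24898082, plus strand) holds both from position -113 on. Cox6b1 (chr7:30626115-30626364, minus strand) holds the ETS motif reversed, as CTTCCGG, from position -28. Atp5g1 (chr11:96075632-96075881, minus strand) and Atp5g3 (chr2:73911327-73911576, minus strand) hold none of the 3 motifs in the bases shown.
Atp5g1: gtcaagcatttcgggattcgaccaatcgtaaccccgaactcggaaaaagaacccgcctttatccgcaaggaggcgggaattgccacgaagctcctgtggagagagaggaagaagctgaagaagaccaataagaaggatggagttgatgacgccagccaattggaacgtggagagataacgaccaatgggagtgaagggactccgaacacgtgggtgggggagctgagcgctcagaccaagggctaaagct
Atp5g2: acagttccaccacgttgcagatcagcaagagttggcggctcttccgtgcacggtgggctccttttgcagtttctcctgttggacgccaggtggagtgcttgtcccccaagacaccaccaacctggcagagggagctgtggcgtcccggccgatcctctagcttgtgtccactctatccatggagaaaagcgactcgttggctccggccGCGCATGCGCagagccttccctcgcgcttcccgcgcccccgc
Atp5g3: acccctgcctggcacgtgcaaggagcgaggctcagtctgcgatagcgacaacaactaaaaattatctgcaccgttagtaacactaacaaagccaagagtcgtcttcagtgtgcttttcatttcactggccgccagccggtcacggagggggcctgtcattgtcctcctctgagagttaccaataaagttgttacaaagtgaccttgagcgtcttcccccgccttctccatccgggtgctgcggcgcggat
Cox6b1: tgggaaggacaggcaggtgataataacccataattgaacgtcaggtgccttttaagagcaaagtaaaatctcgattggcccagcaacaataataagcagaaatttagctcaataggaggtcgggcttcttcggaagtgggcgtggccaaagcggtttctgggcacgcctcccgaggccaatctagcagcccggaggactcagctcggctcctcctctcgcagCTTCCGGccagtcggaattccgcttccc
Ndufaf4: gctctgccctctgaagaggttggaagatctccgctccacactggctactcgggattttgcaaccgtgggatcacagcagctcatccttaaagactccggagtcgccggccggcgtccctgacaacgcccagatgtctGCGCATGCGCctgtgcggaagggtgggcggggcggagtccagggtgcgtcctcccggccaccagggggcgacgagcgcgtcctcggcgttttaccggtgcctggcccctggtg
The G and C content was 62.8% before Atp5g2, 53.6% before Atp5g1, 54.0% before Atp5g3 and Cox6b1, and 66.4% before Ndufaf4.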

How the data were processed

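RNA-seq was measured in 9 libraries, 3 in each of 3 groups taken from the sample titles. The authors deposited 1 table of unnormalised counts, with a row for each gene symbol. Per the submitters' processing notes, reads were handled with TopHat2 2.0.14, Bowtie2 2.2.6 and featureCounts 1.4.6 of Subread on mm10. The gene annotation, the strand setting and the treatment of reads that match several genes are not given in the sources used here. Per the labels' protocols, the TruSeq v2 kit made the libraries; it keeps no strand, so reads of a gene and of an antisense neighbour are mixed.

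The count fit used edgeR 4.0.16 in R 4.3.3: filterByExpr by group (minimum count 10, minimum total 15), TMM scaling (factors 0.979 to 1.02), and 1 quasi-likelihood fit by group of all 9 libraries, with 6 residual degrees of freedom and a biological coefficient of variation of 7.30%. The F test was two-sided, p-values were adjusted by Benjamini-Hochberg over the 14223 genes, and 0.05 was the threshold. A standard error is |log2 fold change| over the square root of F. CPM uses the TMM-scaled totals, except for the sums over cell type markers, which use the unscaled library totals. Medians and sums over a complex are descriptions with no test. Coordinates, exon lengths and overlaps came from GENCODE M21 (92 of 93 members matched), near-identical transcripts from BLAST 2.17.0, and promoters from RefSeq. Figures were drawn in Python 3.11.15 (pandas 2.3.3, matplotlib 3.10.9). Simulated data served to test the fit.

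The members, lists, alternatives and naming rule were chosen with earlier results of these data known; the split of complexes I, III and V into roles was made after seeing their values. The rule names, per class and comparison, up to 4 called members with the smallest adjusted p and the highest and lowest change, all isoform sets, Sdha to Sdhd, X-linked members, and up to 3 called genes of each other list; other members are named because they were called or to complete a group. The lists are those of the report: 2 cytochrome c genes, assembly, coenzyme Q, TCA cycle, carriers, ribosomal proteins, import, regulators, mitochondrial DNA and cell type markers.

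Alternatives were DESeq2 size factors (RLE), library totals only, no filter, both delivered genes left out, DESeq2 1.42.0, limma-voom (limma 3.58.1), only the groups compared, the replicate block, replicates 1 and 2 only, and each library left out. What a replicate number stands for is not stated. With group means removed, Pearson's r across genes was 0.126 to 0.361 for libraries of the same number and -0.246 to 0.106 for the rest, so by this check of the data the numbers pair the samples. Blocked values stand beside many of the results they change, but not all. With p21 the block gave 10 higher complex I genes, against 8 without it, where 24% and 19.8% of all genes passed. The values of 1 member are not reported here.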

Additional observations from a re-analysis of the deposited data

How the results depend on the processing

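None of the members called in any comparison changed sign in any of the alternatives or fits without 1 library; among named members that were not called, signs changed 56 times. The range over single libraries left out was 15 to 25 higher and 4 to 7 lower with p21, 1 to 3 higher with p16, and 0 to 10 higher and 0 to 1 lower for p21 against p16; with p21 the complex I median ran from 0.016 to 0.062 and the complex V median from -0.0027 to 0.043, and the complex IV median ran from 0.054 to 0.097 with p16 and from 0.040 to 0.11 for p21 against p16. Library totals only, which shift the median of all genes by -0.048 with p21 and -0.029 with p16, gave 13 lower members and medians of -0.025, -0.022, 0.070 and -0.031 for complexes I, II, IV and V with p21, 2 lower members and a complex IV median of 0.056 with p16, and 3 higher members for p21 against p16. With no filter the complex IV median was 0.081 with p21 and 0.026 for p21 against p16, where 3 members were higher and 1 lower. RLE size factors, both delivered genes left out and limma-voom each gave 1 lower member for p21 against p16. DESeq2 gave 2 higher and 1 lower member with p16. Fits of only the groups compared gave 4 lower members with p21, 3 higher with p16 and 1 lower for p21 against p16. The replicate block gave 5 higher and 2 lower members with p16 and 14 higher for p21 against p16. Replicates 1 and 2 only gave 2 higher and 1 lower member for p21 against p16. Counting only members without a near-identical copy, chosen after seeing the data, gave 14 higher members and medians of 0.028 for complex III and 0.084 for complex IV with p21, and 1 lower member for p21 against p16. Fewer samples or genes enter some of these; otherwise the cause was not tested. Low counts limit Cox4i2, Cox6a2, Cox7a1, Cox7b2, Cox8b and Cox8c; why Ndufs5 had 0 counts was not tested.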
